A study of Mus musculus with 3 samples.

Results

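Tumor necrosis factor (TNF) receptors, the adaptors and ubiquitin ligases that bind them, and the caspase-8 inhibitor c-FLIP were followed as 10 genes of 36870 gene names on the array: the receptors Tnfrsf1a, Tnfrsf1b, Fas and Tnfrsf10b, the adaptors Traf1, Traf2 and Traf3, the ubiquitin ligases Birc2 and Birc3, and Cflar. They were chosen by name, and all 25 probes that carry those names were kept. Of the 10 genes, 7 were listed by the authors as at least 2-fold higher after lipopolysaccharide (LPS) than in unchallenged macrophages, against 9.70% of all gene names, and none as lower. At the brightest probe none of 10 genes compared with LOC1, and none of 9 with LOC3, was past 2-fold from LPS alone. Over all genes 6.30% were, with either strain. For Tnfrsf10b, close to background, there is only a bound of at least 1.35-fold higher with LOC1 and no value with LOC3. Traf1 was 1.63-fold higher with LOC1 and 1.60-fold higher with LOC3 than with LPS alone, and Fas was 1.57-fold and 1.30-fold lower.

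RNA came from RAW264.7 cells, a mouse macrophage line, in 3 conditions with 1 array each, and LPS, an agonist of the receptor TLR4, was given for 3 h in every one of them. The LPS group received no bacteria, while the LOC1 and LOC3 groups first met Lactiplantibacillus plantarum strain LOC1 or LOC3, both isolated from tea leaves. The labels give 12 h for the bacteria and the methods give 24 h, and the LPS dose is 50 ng/mL in one place and 100 ng/mL in another. The array of unchallenged cells was not analysed here, so the change with LPS is known only from the deposited ratios. The cell line is a single source of RNA, and in bulk RNA fewer expressing cells cannot be told apart from less RNA per cell.

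TNF-R1, encoded by Tnfrsf1a, carries a death domain and can signal either survival or death, whereas TNF-R2, encoded by Tnfrsf1b, lacks one and binds TRAF proteins directly. Fas and the TRAIL receptor encoded by Tnfrsf10b use their death domains to recruit caspase-8 through FADD. At TNF-R1, TRAF2 brings in the ligases cIAP1 and cIAP2, encoded by Birc2 and Birc3, whose ubiquitin chains open the way to NF-kB, and TRAF1 binds TRAF2. TRAF3 takes part in the disposal of the kinase NIK and so holds back the alternative NF-kB pathway, while c-FLIP, encoded by Cflar, blocks caspase-8 at death receptors. In macrophages several of these genes are known targets of NF-kB, which TLR4 activates.

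The 75th percentile of the signal, which set the scale of each array, was 555 for LPS alone, 513 after LOC1 and 516 after LOC3, in units of background-subtracted fluorescence (intensity). Every level given below is such an intensity, and every difference is a log2 difference after that percentile was taken off. Since each condition has 1 array, there is no test and no spread between cultures. The only error that can be given is that between spots, from 300 probes printed 10 times on each array. Those with too few spots well above background were left out. The technical SD of a log2 difference was 0.06 for bright probes, from 269 of them. It was 0.29 to 0.33 for dim ones, those more than 2-fold under the percentile, from only 10 to 12 probes per array. Between 47.8% and 51.9% of the probes were well above background. All 8 macrophage markers were well above background on all 3 arrays, with summed intensities of 506523 with LPS, 408133 after LOC1 and 443158 after LOC3. Lyz2 gave the largest share of each sum. By log2 difference from LPS, 4 markers were higher and 4 lower with LOC1, and 5 and 3 with LOC3, with medians of -0.01 and 0.07. With LOC1 they ran from -0.89 for Csf1r to 0.57 for Adgre1. The part of this in the results below was not tested. Among 12 markers of other cell types 8, 6 and 4 passed with LPS, LOC1 and LOC3, and their summed intensity was 653 to 662. Cd3e, Col1a1, Col1a2 and Cdh5 passed on all 3 arrays. Most of the sum came from the T cell marker Cd3e, which read 396, 416 and 451. Cd3g, Ly6g and Cpa3 were among those that passed on none. Scaling by the median of the array instead adds 0.22 to every LOC1 difference and 0.20 to every LOC3 difference from LPS, and for the 10 genes followed here those whose direction turns with it are named below.

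The promoters are shown first for the genes on which the results turn, since most of the 10 genes were listed as higher after LPS: Traf1 for the highest listed ratio, and Tnfrsf1b, Fas, Traf3 and Cflar because a searched motif was found in them. Sequences are from RefSeq on GRCm38.p6 and run from 250 bases before to 50 bases after the gene start, in the direction of the gene. Of the 10 genes 9 were matched, and Tnfrsf10b was not. Capitals mark the motif, which is the kB site in Traf3, the interferon-response core (GAAA, any 2 bases, GAAA) on the opposite strand in Tnfrsf1b and Cflar, and the AP-1 site TGANTCA in Fas.
Traf1 promoter, chr2:34961723-34962022 (minus strand): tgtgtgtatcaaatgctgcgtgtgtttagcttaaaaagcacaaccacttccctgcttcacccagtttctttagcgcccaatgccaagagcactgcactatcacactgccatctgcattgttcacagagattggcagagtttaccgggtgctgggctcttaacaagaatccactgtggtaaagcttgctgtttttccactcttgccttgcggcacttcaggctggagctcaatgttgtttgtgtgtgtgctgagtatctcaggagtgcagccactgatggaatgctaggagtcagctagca
Tnfrsf1b promoter, chr4:145246821-145247120 (minus strand): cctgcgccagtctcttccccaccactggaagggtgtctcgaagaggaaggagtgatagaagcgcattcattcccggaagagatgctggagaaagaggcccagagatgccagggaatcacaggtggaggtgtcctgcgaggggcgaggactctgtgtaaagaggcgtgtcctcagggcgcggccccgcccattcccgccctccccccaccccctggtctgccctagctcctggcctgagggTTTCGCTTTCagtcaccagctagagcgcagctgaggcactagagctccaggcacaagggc
Fas promoter, chr19:34290409-34290708 (plus strand): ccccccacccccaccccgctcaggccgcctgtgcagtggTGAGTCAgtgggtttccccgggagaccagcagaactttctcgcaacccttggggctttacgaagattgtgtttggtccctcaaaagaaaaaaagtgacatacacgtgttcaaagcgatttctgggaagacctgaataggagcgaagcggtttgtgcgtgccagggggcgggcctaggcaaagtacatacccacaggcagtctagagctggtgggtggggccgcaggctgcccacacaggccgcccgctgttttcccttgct
Traf3 promoter, chr12:111166120-111166419 (plus strand): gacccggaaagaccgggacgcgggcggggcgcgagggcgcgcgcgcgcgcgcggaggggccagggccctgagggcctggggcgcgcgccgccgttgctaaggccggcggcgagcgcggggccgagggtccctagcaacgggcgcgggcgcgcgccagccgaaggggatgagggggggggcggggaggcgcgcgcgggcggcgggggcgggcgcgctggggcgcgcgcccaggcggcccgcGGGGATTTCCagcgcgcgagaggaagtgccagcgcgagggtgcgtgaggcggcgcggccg
Cflar promoter, chr1:58711241-58711540 (plus strand): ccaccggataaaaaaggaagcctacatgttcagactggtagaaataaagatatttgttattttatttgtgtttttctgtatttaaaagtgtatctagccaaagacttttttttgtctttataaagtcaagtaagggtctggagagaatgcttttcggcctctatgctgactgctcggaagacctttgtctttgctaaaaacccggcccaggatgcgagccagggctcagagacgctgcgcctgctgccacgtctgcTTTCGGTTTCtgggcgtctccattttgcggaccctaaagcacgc

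A kB site was present in 1 of the 10 promoters that the table holds for the 9 genes, that of Traf3, where it begins 10 bases before the start, and in 4.51% of all 32851 promoters. The interferon-response core began 10 bases before the start of Tnfrsf1b and 6 bases after that of Cflar, and 3.44% of all promoters held it. An AP-1 site lay 211 bases before the start of Fas, against 7.81% of all promoters, and the pattern TGANTCA matches it on both strands. Both strands were searched, and a match of letters is a description of these windows only.

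Against unchallenged cells, the deposited table listed 14 of the 25 probes with a ratio for the LPS array, all of them higher, and these belong to 7 genes. The same listing of at least 2-fold higher covered 9.70% of all gene names, or 14.5% of those with a probe well above background on the LPS array, and 7 of the 9 genes so detected were listed. A ratio of at least 2-fold lower was listed for none of the 10 genes, against 8.66% of all gene names and 11.0% of those detected. Ratios with LOC1 and LOC3 stand beside them and refer to the same unchallenged cells. The smallest listed ratio had a size of 1 on the log2 scale, and of 146 probes that spanned more than 4-fold between the 3 arrays 17 were not in the table, so a gene that is not listed cannot be taken as unchanged. Tnfrsf1a, Tnfrsf10b and Traf3 had no probe in the table.

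Traf1 carried the highest ratio, a log2 ratio to unchallenged cells of 7.38 with LPS, which is 167-fold, 8.13 with LOC1 and 8.10 with LOC3. Fas followed with 5.51 or 45.6-fold with LPS, 4.89 with LOC1 and 5.17 with LOC3. These 2 genes lay on opposite sides once bacteria were added: the Traf1 ratio was higher with either strain than with LPS alone and that of Fas was lower. For Cflar, 3 of its 5 probes were listed, with log2 ratios of 3.53 to 4.31 with LPS, 3.93 to 4.94 with LOC1 and 3.86 to 4.91 with LOC3, and the brightest probe was not among them. Birc3 was listed at its brightest probe with 3.64, or 12.5-fold, with LPS, 3.36 with LOC1 and 3.50 with LOC3. Tnfrsf1b had a ratio of 3.35, or 10.2-fold, at the brightest probe with LPS, 3.63 with LOC1 and 3.64 with LOC3. The ligases thus differed in size, since Birc2 was listed at 1.65 with LPS, 1.62 with LOC1 and 1.70 with LOC3. Traf2 was the lowest of the listed genes at 1.27, or 2.41-fold, with LPS, 1.32 with LOC1 and 1.37 with LOC3, at a probe that is not its brightest.

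**Figure D1:**
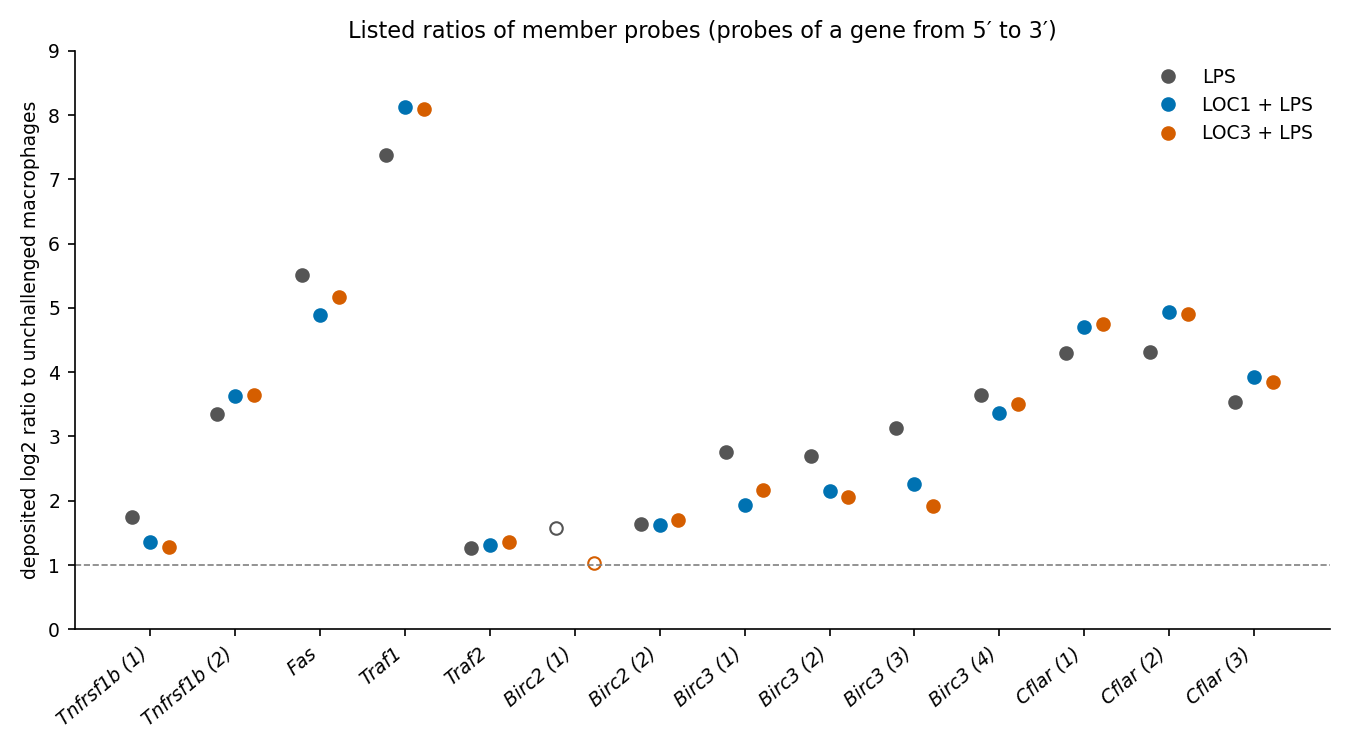
Deposited log2 ratio to unchallenged macrophages (vertical axis) for the 14 listed probes, with 1 point per array where a ratio is listed: LPS in grey, LOC1 before LPS in blue and LOC3 before LPS in orange. The 5′ Birc2 probe has no listed ratio with LOC1. The dashed line is 2-fold, open points are bounds because the unchallenged level implied by the ratio is under the background limit, and Traf1 stands highest with 7.38, 8.13 and 8.10.

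The receptors came next, compared between arrays by intensity. Tnfrsf1a, the gene of TNF-R1, was measured by 2 probes, and the brighter one (mm9 chr6:125312376-125312435, plus strand) read 23104 with LPS, 20721 with LOC1 and 23463 with LOC3. The log2 differences from LPS were -0.04 with LOC1 and 0.13 with LOC3, both within 2 technical SD. Under median scaling the LOC1 difference turns to 0.18. Its second probe read 1575, 1334 and 1455, with differences of -0.13, which is past 2 technical SD, and -0.01. Under median scaling both differences of the second probe turn above 0. On the percentile scale no probe of TNF-R1 thus differed from LPS by more than 0.13. Under median scaling the LOC3 difference at the brighter probe becomes 0.32.

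Tnfrsf1b, the gene of TNF-R2, was read by 2 probes that went opposite ways. The bright probe gave 26370 with LPS, 28970 with LOC1 and 29189 with LOC3, and was higher with each strain by 0.25 on the log2 scale. A dimmer probe, 29599 bases farther 5′ along the gene, gave 626, 431 and 408, lower by differences of -0.43 with LOC1 and -0.51 with LOC3. Either difference is past 2 technical SD, so the direction of Tnfrsf1b depends on the probe, and the mean over both probes is -0.09 with LOC1 and -0.13 with LOC3. The deposited ratios show the same split, with the 5′ probe at 1.75 with LPS, 1.36 with LOC1 and 1.28 with LOC3. The first 30 bases of each 60-base probe are printed, in mm9, to show which stretch was read.
Tnfrsf1b probe, chr4:144833903-144833961 (minus strand): ttttaatgatgatggtgtctcctgtagccc
Tnfrsf1b probe, chr4:144804304-144804363 (minus strand): gcaattgcactgtgtgctggacagaattcc

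Fas, the receptor of Fas ligand, was lower with bacteria at the probe chr19:34402164-34402223 of mm9 (plus strand). It read 7305 with LPS, 4298 with LOC1 and 5245 with LOC3. LPS alone gave the highest value and LOC1 the lowest, with log2 differences from LPS of -0.65 with LOC1, or 1.57-fold lower, and -0.37 with LOC3, or 1.30-fold lower. LOC1 lay below LOC3 by a difference of -0.28, which is past 2 technical SD. The second Fas probe, 18431 bases farther 5′, was not well above background on any array.

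Tnfrsf10b, the mouse TRAIL receptor, was close to background. Its brightest probe (mm9 chr14:70184141-70184200, plus strand) read 12.5 with LPS, 20.3 with LOC1 and 19.9 with LOC3 and was well above background only with LOC1. It was at least 1.35-fold higher with LOC1 than with LPS, within 2 technical SD for a dim probe, and no value can be given for LOC3 against LPS. The other 2 probes were not well above background on any array. Tnfrsf10b therefore enters no statement of direction.

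**Figure D2:**
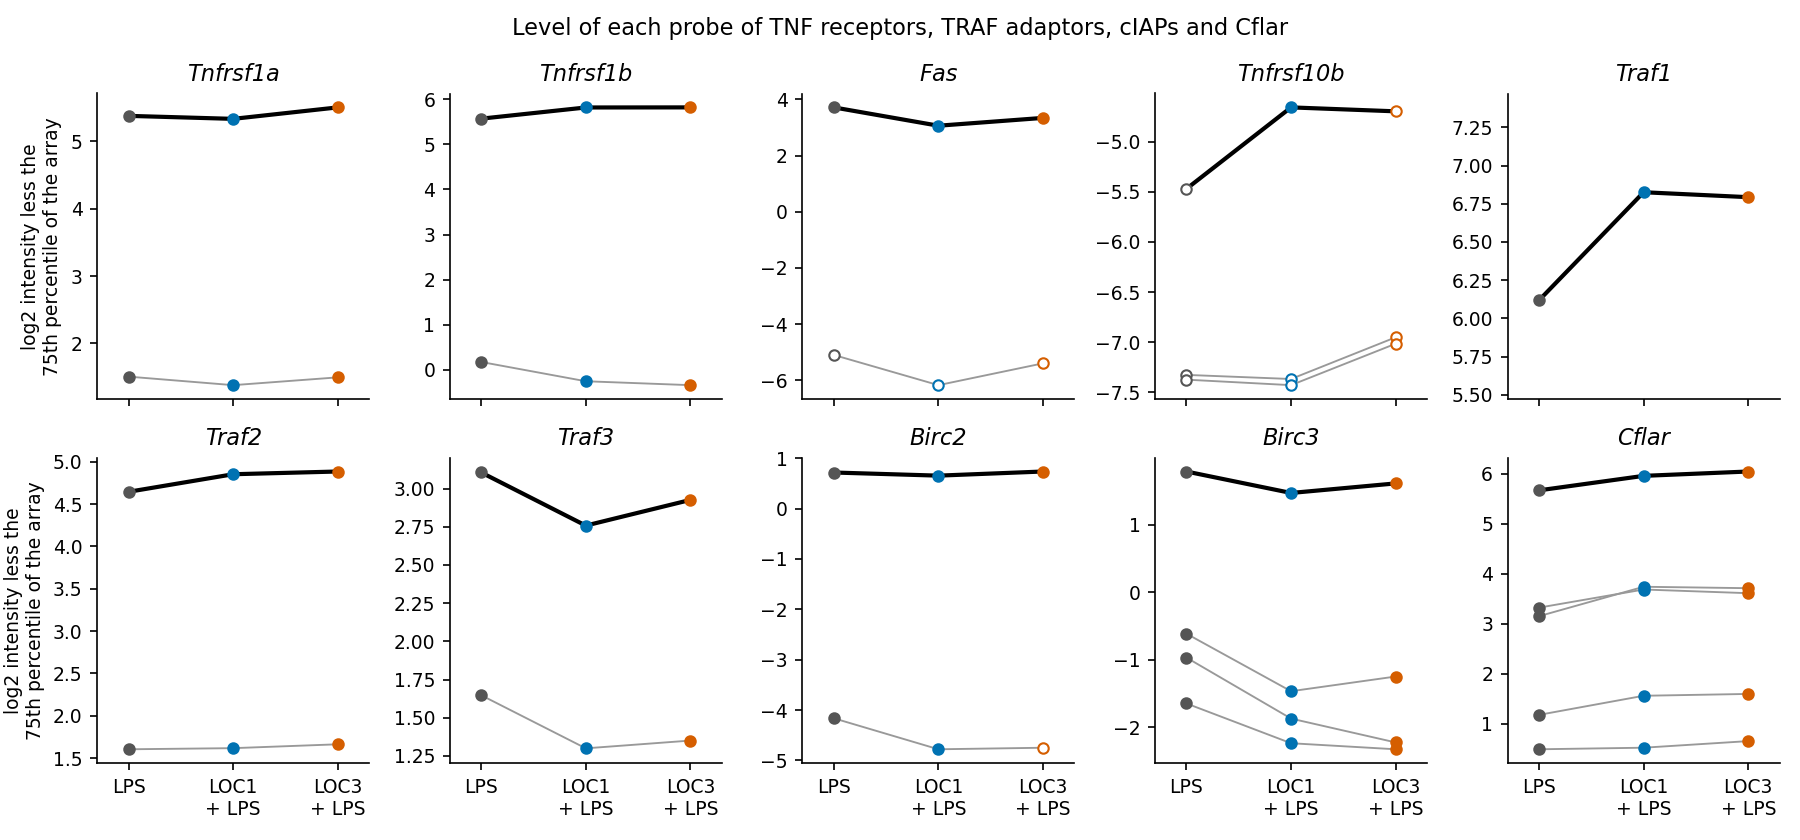
Level of each of the 25 probes, as log2 intensity less the 75th percentile of its array (vertical axis, own scale in each panel), on the LPS, LOC1 and LOC3 arrays, with the brightest probe of a gene joined in black and its other probes in grey. Filled points are well above background and open ones are not; only Tnfrsf10b has no probe well above background on all 3 arrays.

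Of the adaptors, Traf1 differed most. At the brightest probes of the 10 genes it had the largest difference from LPS on the percentile scale. Single dimmer Birc3 probes went further, to -0.90 with LOC1 and -1.26 with LOC3. With LOC1 the difference of Fas is larger under quantile normalization, -0.71 against 0.58, and with the percentile taken over detected probes, -0.69 against 0.67. Tnfrsf10b is larger with LOC1 at 0.81 with no filter. By the mean of the detected probes Birc3 is larger with LOC3, -0.69 against 0.68. The single Traf1 probe (mm9 chr2:34798882-34798941, minus strand) read 38528 with LPS, 58191 with LOC1 and 57256 with LOC3. Both bacterial arrays were well above LPS and close to each other, with log2 differences from LPS of 0.71 with LOC1 and 0.68 with LOC3 and of 0.03 between the strains. The first 2 are beyond 2 technical SD and the last is not.

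Traf2, the adaptor that carries cIAP1 and cIAP2 to TNF-R1, differed less. The brighter of its 2 probes gave 13890 with LPS, 14836 with LOC1 and 15264 with LOC3, or differences of 0.21 and 0.24, beyond 2 technical SD. Its other probe gave 1687, 1575 and 1635, with differences of 0.01 and 0.06, within 2 technical SD. A higher Traf2 level with bacteria was seen at the brighter probe alone.

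Traf3, the adaptor that restrains NIK, was lower with LOC1 at both its probes. The brighter one (mm9 chr12:112505252-112505311, plus strand) read 4775 with LPS, 3470 with LOC1 and 3923 with LOC3, with differences of -0.35 and -0.18. Its neighbor read 1738, 1263 and 1317, with differences of -0.35 and -0.30. Every one of these differences is past 2 technical SD, but with median scaling that of LOC3 at the brighter probe turns to 0.02 and that of LOC1 becomes -0.13.

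Among the ubiquitin ligases, Birc2, the gene of cIAP1, was read by 2 probes that differed in size. The brighter probe read 911 with LPS, 808 with LOC1 and 860 with LOC3, with differences of -0.06 and 0.02 that lie within 2 technical SD. Under median scaling the first turns to 0.16, and with the percentile taken over detected probes alone the second turns below 0. A probe 18123 bases farther 5′ was dim at 31.0, 18.7 and 19.2, and was not well above background with LOC3. It was lower with LOC1 by a difference of -0.62, or 1.53-fold, past 2 technical SD for a dim probe, and at least 1.45-fold lower with LOC3, within them. The mean over both probes is -0.34 with LOC1 and -0.26 with LOC3, so the direction with LOC3 depends on the probe.

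Birc3, the gene of cIAP2, was lower with both strains at all 4 probes, by unequal amounts. The most 3′ and brightest one read 1911 with LPS, 1419 with LOC1 and 1575 with LOC3, with log2 differences of -0.32 and -0.18. The 3 probes farther 5′ read 109 to 186 with LOC1 and 103 to 217 with LOC3, against 177 to 362 with LPS, and their differences ran from -0.59 to -0.90 with LOC1 and from -0.63 to -1.26 with LOC3. The last of these, at chr9:7856162-7856221, was the only 1 of all member probes past 2-fold, 2.39-fold lower with LOC3. Direction was shared by the 4 probes, whereas size was not, and the dim probes have the larger technical SD. The LOC3 difference of -0.63 lay within 2 technical SD, unlike the others. In the deposited ratios the 3 probes farther 5′ ran from 2.70 to 3.13 with LPS, from 1.94 to 2.26 with LOC1 and from 1.91 to 2.16 with LOC3. Under median scaling the LOC3 difference at the brightest probe turns to 0.02 and that of LOC1 becomes -0.10. The first 30 bases of the 4 probes are given in mm9, from 5′ to 3′ along the gene.
Birc3 probe, chr9:7868669-7868728 (minus strand): ttataacttggttgtgaatttgacttctgg
Birc3 probe, chr9:7866193-7866252 (minus strand): atcaggccttgcatctgggttaccaaaaat
Birc3 probe, chr9:7856162-7856221 (minus strand): acagataatgcccagctaatagaacagggt
Birc3 probe, chr9:7854409-7854468 (minus strand): agaactacaggaccgtcagtgacctcgtta

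Cflar, the gene of c-FLIP, was higher with both strains at each of its 5 probes. The brightest (mm9 chr1:58815653-58815712, plus strand) read 28140 with LPS, 31821 with LOC1 and 34004 with LOC3, with log2 differences of 0.29 and 0.38. Across the 5 probes the difference ran from 0.03 to 0.59 with LOC1 and from 0.16 to 0.56 with LOC3. The highest was at a probe that read 4919, 6841 and 6748. The lowest was at the most 5′ probe, which read 778, 735 and 811, and its LOC1 difference alone lay within 2 technical SD.

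**Figure D3:**
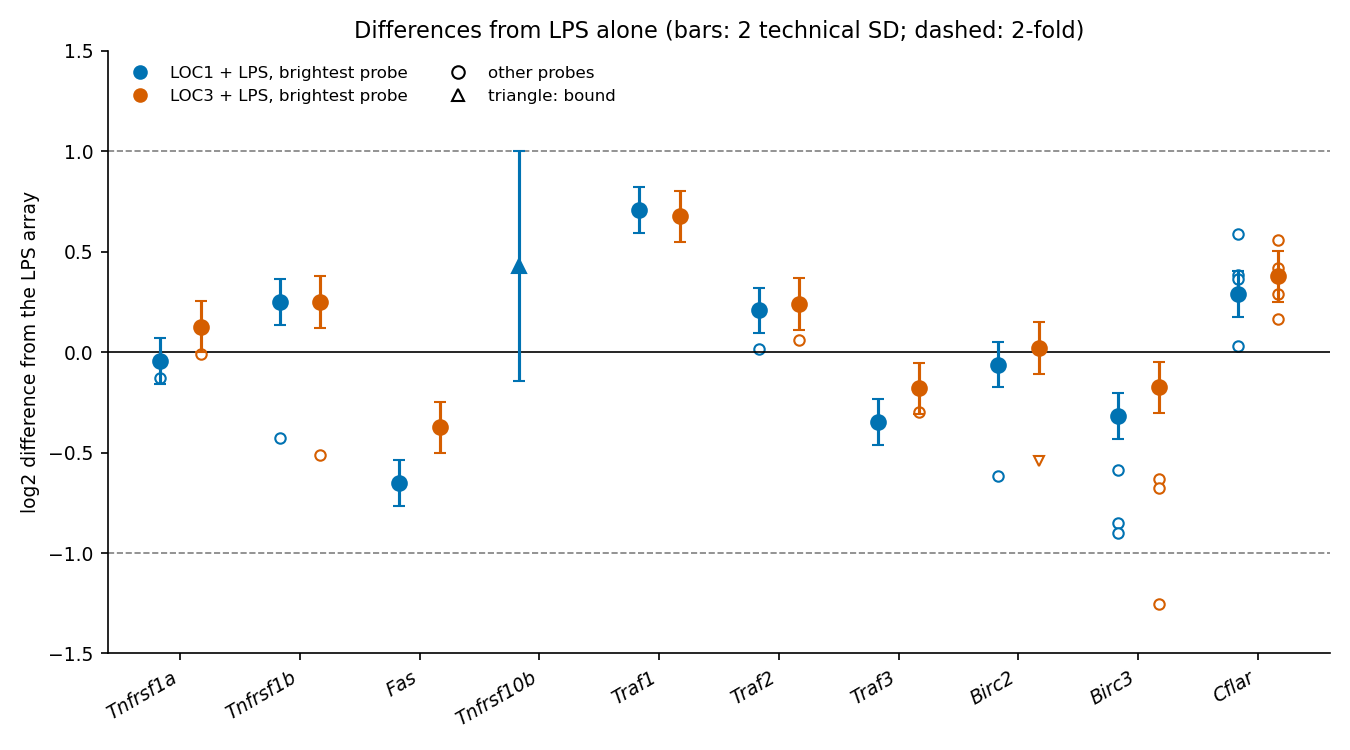
Log2 difference from the LPS array (vertical axis) for each of the 10 genes with LOC1 (blue) and LOC3 (orange), with filled points for the brightest probe, bars of 2 technical SD, open points for the other probes and triangles for bounds. Dashed lines mark 2-fold; Traf1 and Cflar lie above 0 with both strains, Fas, Traf3 and Birc3 below, and the probes of Tnfrsf1b fall on both sides.

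By count, with the bound of Tnfrsf10b taken at its value, none of the 10 genes was past 2-fold with LOC1 against LPS. Of all 20012 genes compared 6.30% were. None of 9 genes was past it with LOC3, where it was 6.30% of 19314. At 1.5-fold, 2 genes passed with LOC1, Traf1 and Fas, against 19.1% of all genes, and 1 with LOC3, Traf1, against 17.7%. Beyond 2 technical SD lay 7 of 10 genes with LOC1, against 52.1% of all genes, and 7 of 9 with LOC3, against 48.5%. With each strain these were 4 on the higher side, Tnfrsf1b, Traf1, Traf2 and Cflar, against 27.7% of all genes with LOC1 and 28.6% with LOC3, and 3 on the lower side, Fas, Traf3 and Birc3, against 24.4% and 19.9%. The spread between spots is so small that about every second gene passes it, and it holds no variation between cultures. The median difference was 0.08 over the 10 genes with LOC1, the bound of Tnfrsf10b included, beside 0.00 over all genes, and 0.13 over the 9 genes with LOC3, beside 0.03. These medians have no firm sign, since they become -0.09 and -0.13 as means of the detected probes, -0.04 with LOC1 where Tnfrsf10b is left out by asking for both arrays well above background, and 0.30 and 0.32 under median scaling. Both comparisons share the 1 LPS array.

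The strains were compared directly as well. With Tnfrsf10b again entered as a bound, no gene was past 2-fold between LOC1 and LOC3, against 2.70% of 18874 genes. None was at 1.5-fold, against 5.94%. The largest difference of the brightest probes was that of Fas. Beyond 2 technical SD lay 4 genes, against 17.7% of all genes, and each was lower with LOC1, against 10.5%: Tnfrsf1a with -0.17, Fas with -0.28, Traf3 with -0.17 and Birc3 with -0.14. Tnfrsf1b, Traf1 and Traf2 differed by 0.00, 0.03 and -0.03, within 2 technical SD, and Cflar by -0.09. For Birc3 the mean over the 4 probes is 0.02, since 2 of them were higher with LOC1.

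The remaining genes of the TNF receptor pathway were taken as 6 lists of 69 genes, of which 58 were detected on 1 or more arrays. Past 2-fold were 1 gene higher and 1 lower of 57 with LOC1, against 2.49% and 3.81% of all genes, and 1 higher and 1 lower of 58 with LOC3, against 3.04% and 3.26%. Tnfsf14, the gene of the ligand LIGHT, was the lower one in both comparisons, with 185 with LPS, 3.75 with LOC1 and 23.9 with LOC3. With LOC1 the level was lower by at least 11.8-fold, and with LOC3 the difference was -2.85. Tnfrsf26, a TNF receptor homolog, was higher with LOC1 by 1.41, with 76.7, 188 and 125. Ngfr, the gene of the p75 neurotrophin receptor, was well above background only with LOC3, where it read 135 against 4.83 with LPS and 2.91 with LOC1, at least 8.89-fold higher than with LPS.

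The list of ligands held Tnf, with 57817 with LPS, 102592 with LOC1 and 93274 with LOC3 and differences of 0.94 and 0.79. It also held the lymphotoxin gene Ltb, with differences of 0.13 and 0.19. Of the other receptors, Cd40 differed by 0.12 and 0.14 and Tnfrsf11a, which encodes RANK, by 0.22 and 0.46. In the list of other TRAF genes and partners, Trafd1 differed by 0.23 and 0.26 and Tank, which encodes a TRAF-binding protein, by 0.48 and 0.53. The direction of Tank depends on the probe, since its 4 detected probes ran from -0.74 to 0.53 with LOC1 and from -0.66 to 0.53 with LOC3. These pairs are the brightest by the mean of the 3 arrays, whereas on the LPS array alone Tnfrsf9 and Traf7 would take the second place in the last 2 lists. Tnfrsf9, the gene of 4-1BB, differed by -0.75 and -0.57 and Traf7 by -0.16 and -0.12, and Traf7 turns above 0 under median scaling. By count, 9 other receptors were above their LPS value and 5 below with LOC1, and 9 and 6 with LOC3. Of the other TRAF genes and partners, 7 were above and 3 below with each strain. Over all genes the median difference was 0.00 with LOC1 and 0.03 with LOC3. The counted receptors include Tnfrsf26, past 2-fold with LOC1, and Ngfr, past it with LOC3. None of the genes given with values in this paragraph reached 2-fold. Under median scaling 5 genes of the 6 lists did with LOC1, Tnf among them.

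In the list of kinases, linear ubiquitin ligase subunits and RIPK1, Tab2 differed by 0.16 with LOC1 and 0.25 with LOC3 and Rbck1, which encodes HOIL-1, by 0.05 and 0.00, values so close to 0 that other scalings turn them. The brakes of the pathway had medians of 0.01 and 0.06, which become -0.06 and -0.04 under quantile normalization: Nfkbia, which encodes IkB-alpha, differed by -0.04 and 0.05, and Tnip1, a partner of the A20 protein, by -0.37 and -0.13. Tnfaip3, the gene of A20 itself, named here after its values were seen, differed by -0.60, or 1.52-fold lower, with LOC1 and by -0.36 with LOC3. Nfkbia turns above 0 with LOC1 under median scaling and below 0 with LOC3 under quantile normalization, and Tnip1 turns above 0 with LOC3 under median scaling. The death complex list, on which Cflar acts, had all 8 genes above 0 with either strain, with medians of 0.33 and 0.39. Over all 6 lists 41 of 57 genes were above 0 with LOC1 and 41 of 58 with LOC3. The medians over all genes were 0.00 and 0.03. Under the 3 other scalings tried Fadd alone of the death complex list turned below 0, with LOC3, when the percentile was taken over detected probes. Casp8 differed by 0.28 and 0.38 and Bid, a substrate of caspase-8, by 0.54 and 0.41. By the deposited ratios 15 of the 69 genes were listed as higher with LPS, against 9.70% of all gene names, and 12 as lower, against 8.66%. The ligands had 4 listed as higher and 0 as lower, the other receptors 2 and 5, the other TRAF genes and partners 4 and 3, the kinase list 1 and 1, the brakes 3 and 0 and the death complex 1 and 3.

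**Figure D4:**
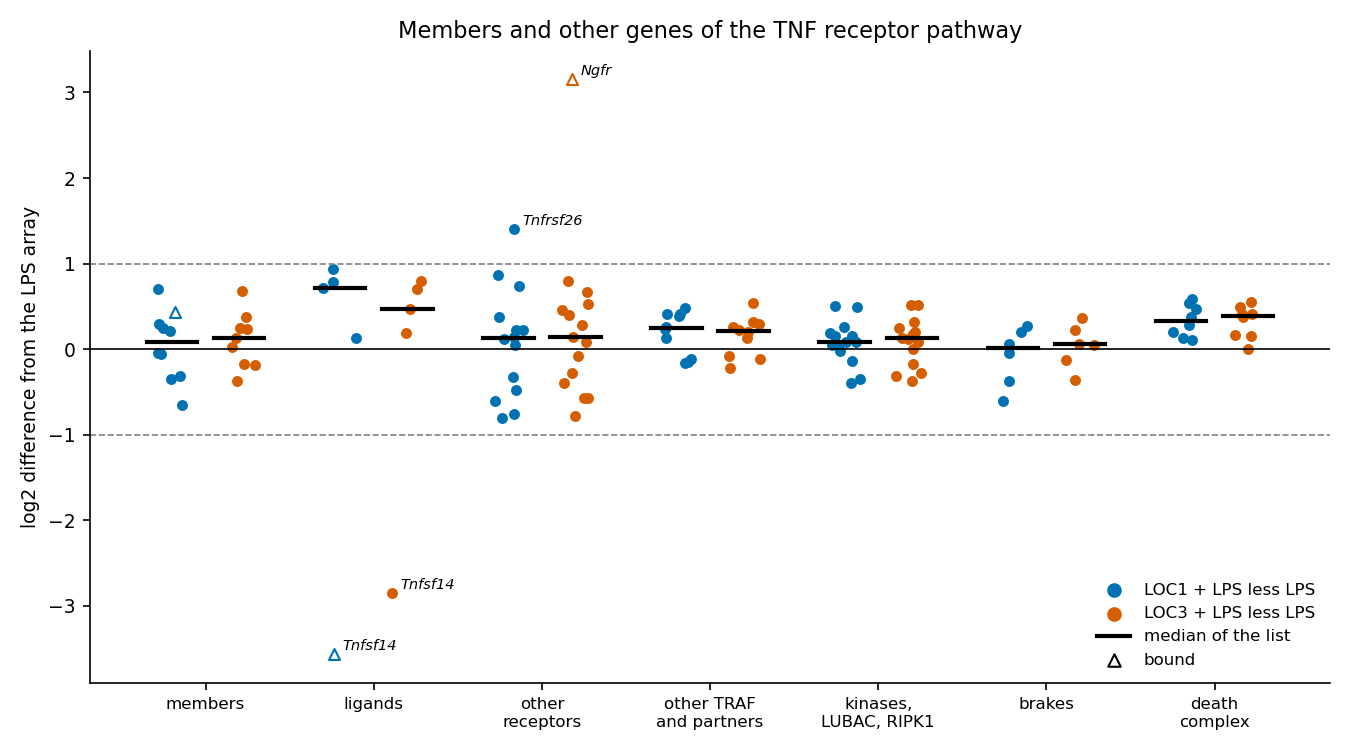
Log2 difference from the LPS array (vertical axis) at the brightest probe of each gene, for the 10 genes followed here (members) and 6 lists of other genes of the pathway, with LOC1 in blue and LOC3 in orange. Black bars are list medians, triangles are bounds, dashed lines mark 2-fold and names mark genes past it: Tnfsf14 lies lowest with both strains, Tnfrsf26 is past 2-fold with LOC1 and Ngfr with LOC3.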

How the data were processed

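RNA of RAW264.7 macrophages was hybridised to 1-colour Agilent mouse arrays, 200 ng of RNA each, with 1 array per condition on 1 slide. The deposited intensity of each spot had been background-subtracted by the authors with Agilent's Feature Extraction and not normalized between arrays. The log2 ratios to unchallenged cells were deposited by the authors after normalization in GeneSpring, and they list only values of at least 2-fold. Differences between the listed columns matched those of the intensities up to 1 constant per array, which settles the scale and the direction between arrays, while the centring against the unchallenged array is not known. The outlier and background marks of the scanner were read as deposited flags. The submitters' processing notes name limma and R 3.2.5.

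Spots marked as outliers (118 to 135 per array) and control spots were left out, and spots of a probe were averaged. After log2 transformation each array was set relative to its own 75th percentile. A gene was compared if either array of the pair was well above background, and where 1 side was not, that side was set no lower than the lowest signal well above background on its array and the result is given as a bound. A gene is represented by its brightest probe, which was also the most 3′ one in 9 of the 9 genes with several probes, and all other probes are described beside it. No levels were compared between probes. Python 3.11.15, numpy 2.4.6, pandas 2.3.3, matplotlib 3.10.9 and limma 3.58.1 (for normexp with an offset of 50) were used, and the procedure was tested on simulated data. The t-test that the methods name could not be run with 1 array per condition, and the small number of arrays limits the precision.

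Positions of probes come from the files and are in mm9, without an annotation of that build, so exon and UTR are not given. Of the 25 probes 18 were matched by accession, all to the same symbol, and the rest keep the name on the array. The 10 genes and the pathway lists were chosen with earlier results of these data known. In the pathway lists the genes named are those past 2-fold in either comparison with LPS and the 2 brightest detected genes not past it, by the mean of the 3 arrays.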

Additional observations from a re-analysis of the deposited data

How the results depend on the processing

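None of the genes compared passed 2-fold under any other scaling, filter or background correction tried, and at 1.5-fold 2 passed with LOC1 and 1 with LOC3. Tnfrsf10b was compared with LOC3 only with no filter, and with LOC1 mostly as a bound. From the deposited ratios 5 genes were compared. Directions that lay beyond 2 technical SD turned in 5 values: averaging the detected probes gave Tnfrsf1b -0.0898 (LOC1) and -0.132 (LOC3), median scaling gave Traf3 0.0171 and Birc3 0.0209 with LOC3, and averaging gave Birc3 0.0209 between the strains. Of the other pathway genes, 2, 2 and 1 were past 2-fold with LOC1, with LOC3 and between the strains. These counts became 12, 7 and 3 at 1.5-fold. With LOC1 the count was 5 under median scaling and 1 after normexp. Where both arrays had to be well above background it was 1, 1 and 0. From the deposited ratios it was 0 with LOC1 and 0 with LOC3, over 15 and 18 genes, and with no filter it was 2 between the strains. Over all genes, 499 were higher and 762 lower with LOC1 and 588 and 629 with LOC3. Under median scaling these were 890 and 465, and 888 and 376, so the share of higher calls went from 39.6% to 65.7% and from 48.3% to 70.3%, and under quantile normalization the LOC1 share was 50.7%. The counts past 2-fold of 1261, 1217 and 509 fell to 420, 405 and 149 after normexp and rose to 3839, 3779 and 2814 with no filter, and with both arrays well above background they were 711 with LOC3 and 105 between the strains. The causes were not tested, beyond the fewer or further genes that a filter admits. No paired analysis was possible because each group has 1 array, and for the same reason no array could be left out. Signal over background limits Tnfrsf10b, the second Fas probe and the 5′ Birc2 probe.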
